A study of Mus musculus with 8 samples.

Results

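Small nucleolar RNA (snoRNA) host transcripts are long RNAs whose introns carry snoRNAs, the guides that direct methylation (box C/D class) or pseudouridylation (box H/ACA class) of ribosomal RNA. When the host is spliced, the intron is debranched and trimmed to the mature snoRNA, and the spliced exons remain as a separate RNA. Many hosts, including protein-coding ones, start with a tract of pyrimidines (a terminal oligopyrimidine or TOP start), a feature they share with ribosomal protein genes, and the spliced RNA of several noncoding hosts is degraded by nonsense-mediated decay when it is translated. The arrays measure the host RNA, not the snoRNAs.

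The genes described here are Zfas1, Snhg1, Snhg3, Snhg5, Snhg6, Snhg8, Snhg12 and Gas5. They were selected on their measured difference between the arrays labelled Trib1 hi and Trib1 null, so their levels and differences are given as a description without a test. Only probe sets whose annotation lists exactly 1 gene were taken, which left 9 probe sets for 5 of the 8 genes, out of 28898 such probe sets for 17098 genes. Gas5 and Snhg5 had 3 probe sets each, and Zfas1, Snhg6 and Snhg8 had 1 each. Snhg1, Snhg3 and Snhg12 had none.

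The series compares 4 arrays labelled Trib1 hi, from an AML (acute myeloid leukaemia) line given as expressing Hoxa9 and Trib1, with 4 labelled Trib1 null, from an AML line given as expressing Hoxa9 alone. Both were untreated and grew with serum and IL-3, a cytokine that myeloid progenitors need, and the leukaemia had developed in homozygous Trib1 knockout mice. Hoxa9 encodes a homeodomain protein whose overexpression transforms myeloid cells, and Trib1 a pseudokinase that promotes turnover of C/EBP alpha. Whether replicate arrays stand for separate cultures or clones is not stated, so p-values reflect only how these samples vary, possibly for technical reasons, and a difference between lines cannot be told apart from one due to Trib1.

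Values are intensities from MAS5, the Affymetrix summary of a probe set on a linear scale. Both Trib1 probe sets read below 500 on all 8 arrays, the brighter one at 5.92 to 122 in the group labelled Trib1 hi and 206 to 304 in the group labelled Trib1 null, without overlap and against the labels. Most probe sets of that level, a mean log2 value from 5 to 7, also read lower on the arrays labelled Trib1 hi. Their median log2 difference was -2.05 and their 10th percentile -3.47, and the Trib1 difference lay below that percentile. Whether the labels are right was not tested. If the groups had been exchanged, every direction given here would turn round, and groups are called by their labels throughout. Hoxa9, given as expressed in both lines, read 10.0 to 391 in the group labelled Trib1 hi and 969 to 1075 in the group labelled Trib1 null. Of 9 myeloid and blood cell markers, 7 exceeded 500 on every array labelled Trib1 hi and 8 on every array labelled Trib1 null, whereas the listed T and NK cell, B cell, erythroid and fibroblast markers with a probe set stayed below 500 on all arrays. These counts do not compare levels: Mpo, among the 9 and picked out after its values were seen, was far higher in Trib1 hi (log2 difference 9.85). Differences of the other markers are not given here. Of the endothelial and megakaryocyte markers, Pecam1 exceeded 500 on every array and Itga2b on at least 1. Outside the lists, and looked at after its values were seen, 1 of 12 globin probe sets, Hbb-b2 1417184_PM_s_at, read 6330 ± 899 in the group labelled Trib1 hi and 371 ± 65.7 in the group labelled Trib1 null, and the other 11 stayed below 500. It moves with the hosts, and its part in their difference was not tested. Trib1 hi 3 stood apart: its median intensity was 68.3, against 3.71 to 9.52 on the other 7 arrays, and its 90th percentile was the lowest, at 1806. Bright genes tended to read low and dim genes high on that array. Differences also moved with level in general: the median log2 difference of probe sets with a mean log2 value from 5 to 7 was -2.05, against 0.09 from 11 to 13. Folds were computed after setting signals below 500 to 500, and "at least" marks a fold in which only 1 of the groups dipped below that limit.

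The starts of several host genes share features that the choice of genes did not use. RefSeq promoter entries of the mouse assembly GRCm38.p6 matched 7 of the 8 genes, with 8 starts because Gas5 has 2 entries. The windows below run from 50 bases before to 50 bases after the annotated start, 5′ to 3′ on the gene's strand, and show the starts with both features next to 2 that lack 1 or both. Capitals mark a TATA lying within 40 to 20 bases before the start, and a run of at least 5 pyrimidines. The run is counted from a C within 10 bases of the annotated start, whatever base precedes that C. In Snhg5, Snhg8 and Snhg12 a T precedes it, so the whole pyrimidine tract is longer than the marked run and begins with T. These searches were chosen after the sequences had been seen, and used the gene's strand only.
Gas5, second entry, chr1:161035116-161035215, plus strand: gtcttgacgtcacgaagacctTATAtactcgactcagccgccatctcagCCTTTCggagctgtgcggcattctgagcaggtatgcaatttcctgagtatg
Snhg12, chr4:132308628-132308727, plus strand: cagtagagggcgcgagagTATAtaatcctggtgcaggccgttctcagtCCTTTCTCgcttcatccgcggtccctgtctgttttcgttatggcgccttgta
Snhg8, chr3:123508287-123508386, minus strand: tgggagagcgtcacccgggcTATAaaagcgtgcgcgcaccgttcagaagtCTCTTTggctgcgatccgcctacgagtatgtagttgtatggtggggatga
Snhg5, chr9:88522848-88522947, minus strand: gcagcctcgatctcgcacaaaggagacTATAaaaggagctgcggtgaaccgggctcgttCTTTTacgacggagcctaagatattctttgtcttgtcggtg
Snhg1, chr19:8723437-8723536, plus strand: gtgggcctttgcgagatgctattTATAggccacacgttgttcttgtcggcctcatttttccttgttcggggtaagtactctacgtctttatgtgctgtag
Zfas1, chr2:167062884-167062983, plus strand: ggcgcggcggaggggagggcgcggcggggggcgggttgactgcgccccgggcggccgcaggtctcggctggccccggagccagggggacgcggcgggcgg

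A TATA in that window was found for 5 of the 7 genes, against 5.49% of all 32851 promoter entries. A pyrimidine run counted from a C in this way was found for 5 of the 7, against 29.7%. Counted by entry, as those shares are, each feature was found at 5 of the 8 starts. Both occurred at the same start for 4 genes, Gas5, Snhg5, Snhg8 and Snhg12, against 1.74% of all entries. Counted from the C, the longest run was the 8 bases of Snhg12, which began 2 bases before the annotated start. The C of the Snhg8 run lay on the annotated start itself. Snhg1 had the TATA without such a run, Snhg3 had a run of 5 without the TATA, and neither was found in the window of Zfas1 or at the first Gas5 entry. In the whole 300-base entries, searched on both strands, the cyclic AMP element TGACGTCA occurred in the second Gas5 entry and in 1.79% of all entries. The E-box CACGTG and the amino acid response motif TGATGNAA were found in no member entry, against 7.15% and 3.97% of all entries. A match is a description of these letters and not evidence that a factor binds.

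In the same RefSeq gene table, the 8 hosts enclose different numbers of snoRNA genes. Gas5 and Snhg1 hold 8 each, among them the box C/D genes Snord47 and Snord22. Snhg12 holds 4 (Snora16a, Snora44, Snora61 and Snord99), so it carries both classes. Zfas1 holds 3, including Snord12, Snhg3 holds the pair Snora73a and Snora73b, and Snhg5 holds 2 without a class name. Snhg6 holds the box C/D gene Snord87 alone and Snhg8 the box H/ACA gene Snora24 alone.

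Every host gene with a probe set had at least 1 that read higher on all arrays labelled Trib1 hi than on any array labelled Trib1 null, and none read lower without overlap. Of the 9 probe sets, 6 did not overlap between the groups, all higher in the group labelled Trib1 hi, beside 11.8% of all probe sets tested that were higher without overlap and 11.8% that were lower. Of the 8 that passed the filter on low values, 6 were past the threshold of limma's test and higher, beside 8.17% of all 27022 probe sets tested, while 15.0% were lower and 23.2% differed in either direction. Of the 9, 4 read 500 or more on every array, and among the 7538 probe sets that did, 24.4% were higher, 21.6% lower and 46.1% either. Nothing is read from these counts, because the hosts were selected on this contrast. The median log2 difference of the 8 host probe sets tested was 1.67, beside 0.11 over all probe sets tested, and the median over all 9 was 1.39.

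**Figure D1:**
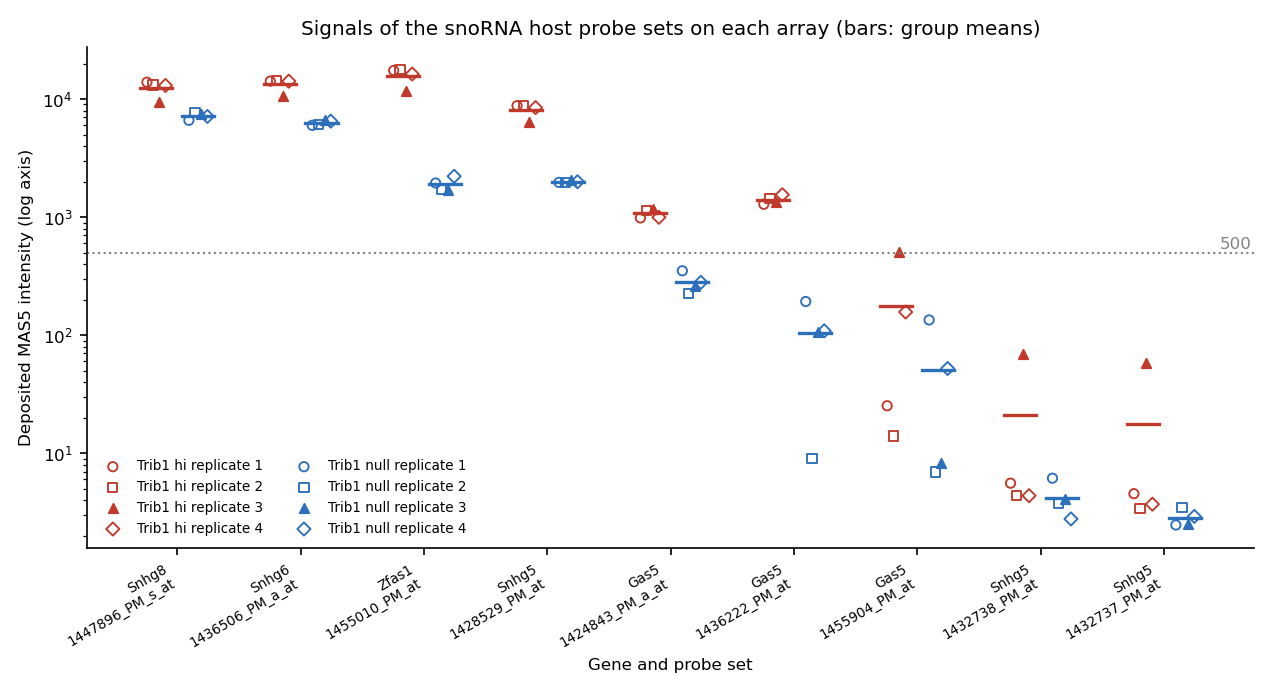
Deposited MAS5 intensity (log axis) of the 9 snoRNA host probe sets on each array, with Trib1 hi in red left of Trib1 null in blue, 1 symbol per replicate (filled triangles for replicate 3) and bars for the group means. In 6 probe sets every array labelled Trib1 hi lies above every array labelled Trib1 null, and Trib1 hi 3 is the lowest of its group in the 4 brightest; the 2 dim Snhg5 probe sets and 1 Gas5 probe set overlap.

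Among hosts of box C/D snoRNAs, Zfas1 differed most where both groups were above 500. Zfas1, named for its position antisense to the start of Znfx1, read 17457, 17710, 11695 and 16307 on Trib1 hi 1 to 4, against 1946, 1719, 1698 and 2218 on Trib1 null 1 to 4. The lowest Trib1 hi value, on Trib1 hi 3, was still far above the highest Trib1 null value. The means were 15792 ± 2799 in the group labelled Trib1 hi and 1895 ± 243 in the group labelled Trib1 null (SD, n = 4 each), 8.27-fold higher in Trib1 hi (log2 difference 3.05, SE 0.12), and 9.10-fold higher without Trib1 hi 3.

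Snhg6, the host of Snord87, read 14191, 14329, 10641 and 14172 on Trib1 hi 1 to 4, against 5992, 6095, 6651 and 6498 on Trib1 null 1 to 4. The groups did not overlap, and the spread was wider in the group labelled Trib1 hi, where replicate 3 read low. Snhg6 averaged 13333 ± 1796 in the group labelled Trib1 hi and 6309 ± 316 in the group labelled Trib1 null, 2.10-fold higher in Trib1 hi (log2 difference 1.07, SE 0.11).

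Snhg5 gave 1 bright probe set and 2 near the bottom of the scale. The bright one, 1428529_PM_at, read 8791, 8811, 6342 and 8468 on Trib1 hi 1 to 4, against 1969.8, 1975, 2044 and 1994 on Trib1 null 1 to 4. The groups did not overlap, and most of the spread between arrays lay in the group labelled Trib1 hi (8103 ± 1185) rather than in the group labelled Trib1 null (1996 ± 33.9). The difference was 4.02-fold (log2 difference 2.01, SE 0.11) and 4.35-fold without Trib1 hi 3. The other 2 probe sets read 3.42 to 5.58 on 3 arrays labelled Trib1 hi, 69.3 and 58.5 on Trib1 hi 3, and 2.47 to 6.15 on the arrays labelled Trib1 null. Both lie far below 500 on every array and overlap between the groups, and 1 of them failed the filter on low values.

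Gas5, growth arrest specific 5, is a host whose spliced RNA accumulates when cells stop growing and, in human cells, binds the glucocorticoid receptor. Its probe set 1424843_PM_a_at read 984, 1144, 1176 and 996 on Trib1 hi 1 to 4, against 351, 225, 263 and 280.4 on Trib1 null 1 to 4. All Trib1 hi values lay above 500 and all Trib1 null values below it, so the fold is a bound, at least 2.14-fold higher in Trib1 hi (1075 ± 98.9 against 279.9 ± 52.8; log2 difference 1.95, SE 0.20). The second probe set, 1436222_PM_at, read 1285, 1438, 1353 and 1548 on Trib1 hi 1 to 4, against 193, 9.06, 106 and 109 on Trib1 null 1 to 4. It too separated the groups, at least 2.81-fold higher in Trib1 hi. Its log2 difference of 4.27 (SE 0.52) includes Trib1 null values far below 500, and was 1.49 with signals below 500 set to 500. Unlike for Zfas1, Snhg5, Snhg6 and Snhg8, Trib1 hi 3 was not the lowest of its group for either probe set.

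The third Gas5 probe set, 1455904_PM_at, did not separate the groups. It read 25.3, 14.0, 507 and 157 on Trib1 hi 1 to 4, against 135, 6.93, 8.31 and 52.2 on Trib1 null 1 to 4. Its log2 difference of 1.39 (SE 1.58) became 0.49 without Trib1 hi 3, and at this signal the probe set cannot show whether it differs from the other Gas5 probe sets.

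Snhg8, the host of the box H/ACA snoRNA Snora24, had the smallest difference among the separated probe sets. It read 13893, 13124, 9390 and 13041 on Trib1 hi 1 to 4, against 6607, 7675, 7523 and 7123 on Trib1 null 1 to 4. The lowest Trib1 hi value, on Trib1 hi 3, exceeded the highest Trib1 null value by less than the spread within Trib1 hi. The means were 12362 ± 2018 in the group labelled Trib1 hi and 7232 ± 478 in the group labelled Trib1 null, 1.69-fold higher in Trib1 hi (log2 difference 0.76, SE 0.12) and 1.85-fold higher without Trib1 hi 3.

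A further 6 probe sets list one of these hosts together with the snoRNA gene inside it, so they cannot be assigned to 1 gene and were not counted. Of the 4 listing Snord22 with Snhg1, 3 read 7675 to 14851 on the arrays labelled Trib1 hi and 1833 to 3336 on those labelled Trib1 null, 3.76-fold to 5.17-fold higher in Trib1 hi without overlap. The fourth read 48.0 to 494 in the group labelled Trib1 hi and 83.5 to 252 in the group labelled Trib1 null, and overlapped. The probe set listing Snora44 with Snhg12 read 4494, 4798, 3553 and 4725 on Trib1 hi 1 to 4, against 558, 385, 484 and 509.8 on Trib1 null 1 to 4, at least 8.45-fold higher in Trib1 hi. The one listing Snora24 with Snhg8 was 2.17-fold higher (6576 ± 862 against 3010 ± 114), beside 1.69-fold for the probe set listing Snhg8 alone.

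**Figure D2:**
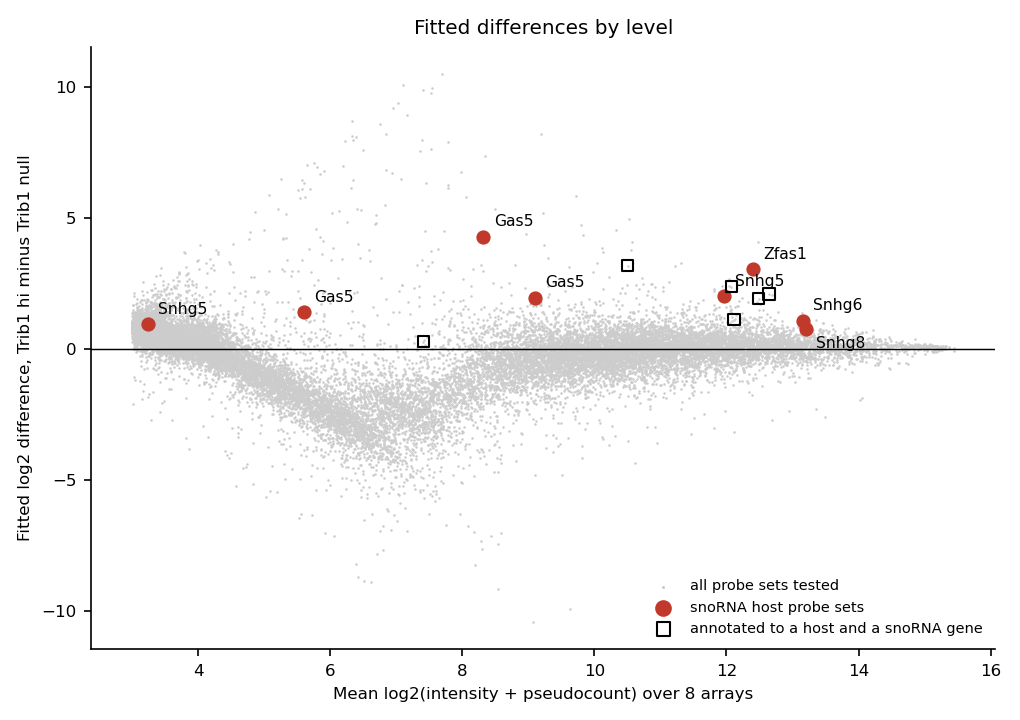
Fitted log2 difference (Trib1 hi minus Trib1 null) against the mean log2 value over 8 arrays for all 27022 probe sets tested (grey), the 8 snoRNA host probe sets tested (red) and 6 probe sets annotated to a host and a snoRNA gene (open squares). All 8 red points lie above 0, and the grey cloud dips below 0 at mean values of 5 to 9, where 2 Gas5 probe sets lie.

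The 5 hosts had like profiles over the arrays, apart from Gas5 on Trib1 hi 3. On the log2 scale, the mean of their brightest probe sets, each centred on its own mean, was 0.97, 1.01, 0.62 and 0.93 for Trib1 hi 1 to 4, against -0.85, -0.96, -0.89 and -0.83 for Trib1 null 1 to 4. Trib1 hi 3 was the lowest of its group for every host except Gas5, where it was the highest. Among 4405 genes above 500 on every array, the 5 closest to this mean profile, by root mean square distance over the 8 arrays, were Cd200r4 (0.067), a receptor of the CD200 receptor family, Psat1 (0.074), an enzyme of serine synthesis, the stress-induced Nupr1 (0.075), the transcriptional repressor Zbtb18 (0.077) and Slc7a1 (0.077), a transporter of cationic amino acids. Psat1 read 10656 ± 1628 in the group labelled Trib1 hi and 3215 ± 99.7 in the group labelled Trib1 null. Slc7a1 read 6130 ± 867 in the group labelled Trib1 hi and 1672 ± 42.4 in the group labelled Trib1 null. The likeness rests mostly on the step between the groups, which the choice of hosts used, and no test is given for it.

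**Figure D3:**
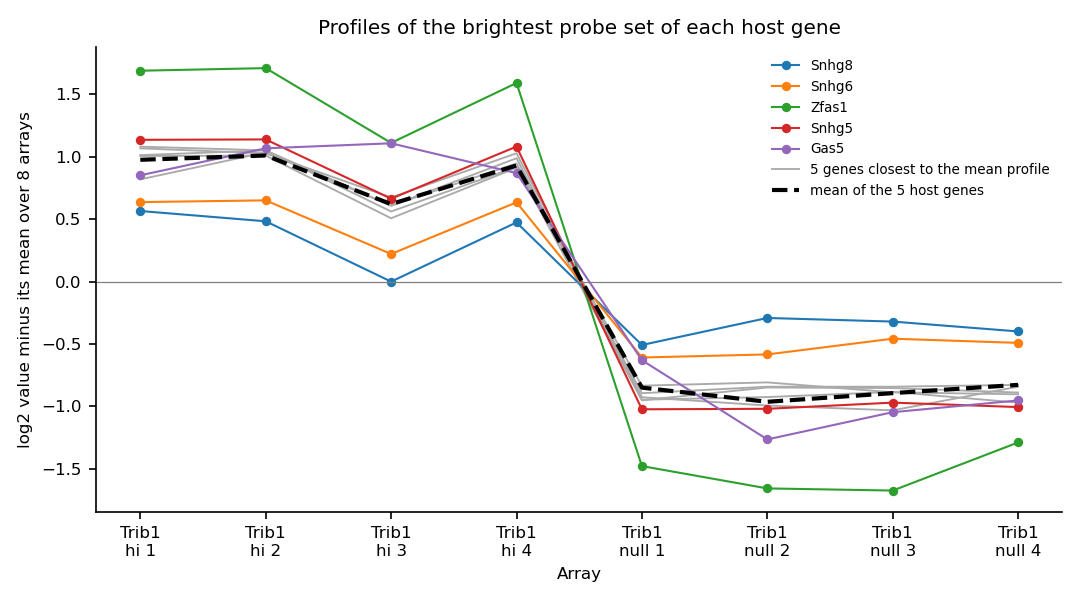
Log2 value minus its mean over the 8 arrays for the brightest probe set of each of the 5 host genes (coloured lines), their mean (dashed) and the 5 genes closest to that mean (grey), with the arrays labelled Trib1 hi left of those labelled Trib1 null. Zfas1 spans the widest range and Snhg8 the narrowest, and all but Gas5 dip on Trib1 hi 3.

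The protein-coding genes next to the hosts were tested, since their values played no part in the choice of hosts. For each of the 8 hosts the nearest named protein-coding gene on either side was taken from the gene table, 16 in all, of which 11 had a probe set and 8 passed the filter. By limma with Benjamini-Hochberg adjustment over all probe sets, 4 of the 8 rose in the arrays labelled Trib1 hi and 0 fell (4 and 1 at an unadjusted p under 0.05), beside 10.3% higher, 18.9% lower and 29.2% either among the brightest probe sets of all 12259 genes tested. The median log2 difference was 0.57, against 0.04 for those genes. Among probe sets at 500 or more on every array, 24.4% were higher and 21.6% lower. Slc3a2, Wdr74 and Rcc1, which rose, adjoin Snhg1 or Snhg3, hosts without a single-gene probe set. Among the tested neighbours of hosts with such a probe set (Znfx1, Syncrip, Zfp949 and Prss12), only Syncrip rose.

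Both neighbours of Snhg1 rose. Wdr74, a nucleolar factor of ribosome assembly, read 4037, 4143, 3219 and 3756 on Trib1 hi 1 to 4, against 1263, 1131, 1335 and 1210.0 on Trib1 null 1 to 4, 3.06-fold higher (adjusted p = 6.91e-12). Slc3a2, the heavy chain shared by several amino acid transporters, read 10402, 9877, 6987 and 9312 on Trib1 hi 1 to 4, against 3620, 4037, 3881 and 3864 on Trib1 null 1 to 4, 2.35-fold higher (adjusted p = 1.39e-09). Neither gene overlapped between the groups, and both calls held in all alternatives run.

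Syncrip, an RNA-binding protein encoded next to Snhg5, rose 1.37-fold (1787 ± 70.0 against 1303 ± 68.7, adjusted p = 0.00365), and did not pass when the variance trend was dropped (adjusted p = 0.0684). Rcc1, the exchange factor of the Ran GTPase and neighbour of Snhg3, rose at least 1.32-fold (692 ± 89.0 against 438 ± 114, adjusted p = 0.0189), but the call ended in 5 of the alternatives, among them leaving out Trib1 hi 1 (0.0621) or Trib1 null 2 (0.0806). Znfx1, the helicase gene that Zfas1 runs antisense to, read 32.5 ± 52.6 in the group labelled Trib1 hi and 41.5 ± 35.7 in the group labelled Trib1 null, and lay below 500 on every array (adjusted p = 0.805). Phactr4 next to Snhg3 (adjusted p = 0.20), Zfp949 next to Snhg5 (0.0665) and Prss12 next to Snhg8 (0.523) did not pass. Without Trib1 hi 3, Phactr4 and Zfp949 were lower in Trib1 hi (adjusted p = 0.0292 and 0.000599), on signals mostly below 500. Tcf24, Ndst3 and Zbtb37 were near the bottom of the scale in both groups and failed the filter.

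**Figure D4:**
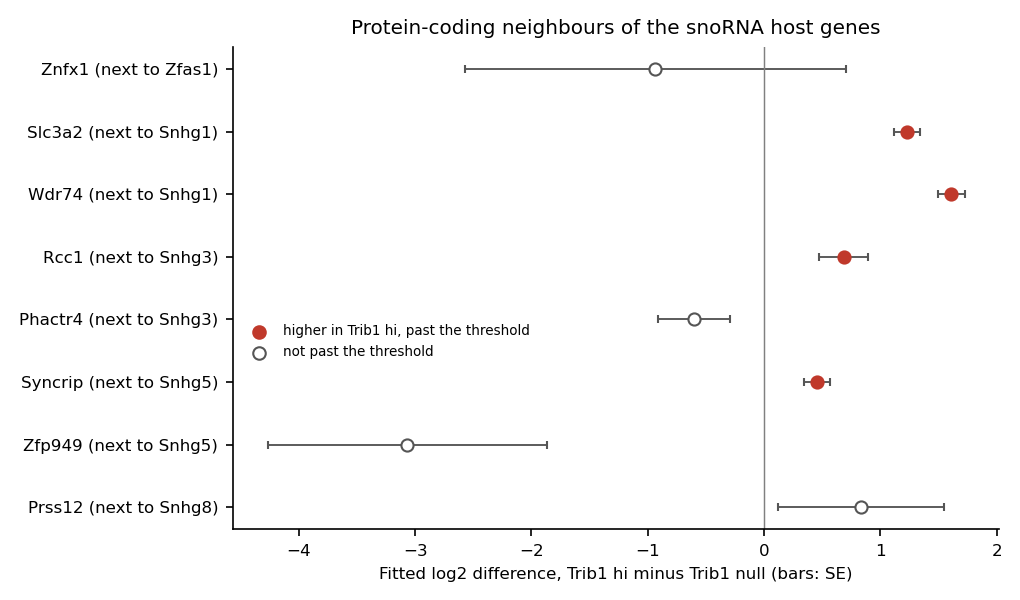
Fitted log2 difference (Trib1 hi minus Trib1 null, bars are SE) of the 8 protein-coding neighbours of host genes that were tested, labelled with the host they adjoin; filled points are past the threshold. Slc3a2, Wdr74, Rcc1 and Syncrip lie right of 0, and the 4 others, with wider bars, did not pass.

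Transcripts of the proteins that package snoRNAs were mostly higher in Trib1 hi, and protein was not measured. Of 18 tested genes of snoRNP core and assembly proteins, 12 rose and 0 fell (limma, 12 and 1 at an unadjusted p under 0.05), with a median log2 difference of 0.70, beside 10.3% higher and 18.9% lower among all genes and 24.4% higher and 21.6% lower among probe sets at 500 or more on every array. Transcripts of all 4 core proteins of box C/D particles rose: the methyltransferase Fbl (1.58-fold), Nop56 (2.87-fold), Nop58 (2.65-fold) and Snu13 (1.49-fold). The calls of Fbl and Snu13 ended in at least 1 alternative (adjusted p up to 0.0613 and 0.0757). Fbl, Snu13, Gar1, Nhp2 and Nop10 were picked out after their values were seen. Of the transcripts of the 4 box H/ACA core proteins, those of the pseudouridine synthase Dkc1 (2.26-fold, 8278 ± 1242 against 3628 ± 167), Gar1 (2.23-fold) and Nhp2 (1.73-fold) rose. Nop10 read 9817 ± 1557 against 8569 ± 511 (adjusted p = 0.328). A dimmer probe set of Nop10 was past the threshold and higher, so its result depends on the probe set. The nucleolar chaperone Nolc1 rose 2.69-fold (3076 ± 318 against 1139.5 ± 74.4, adjusted p = 1.27e-10), and Tcof1, which acts in ribosomal RNA transcription, read 709 ± 196 in the group labelled Trib1 hi and 261 ± 72.8 in the group labelled Trib1 null (adjusted p = 0.000188). Earlier results of these data had already shown Nop56, Nop58 and Nolc1 to be higher when this list was made, so the list is not independent evidence of its direction. With Trib1 hi 3 left out, 15 of the 18 were higher and 2 lower.

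Genes that release and trim the intron gave the same direction where they passed. Of 12 tested genes of intron debranching and nuclear RNA trimming, 6 rose and 0 fell (limma, 8 and 1 at an unadjusted p under 0.05), beside 10.3% higher and 18.9% lower among all genes and 24.4% and 21.6% among probe sets at 500 or more on every array. All 6 belong to the RNA exosome, the nuclease complex that trims snoRNA ends, of which 8 subunits were tested. Exosc5, a subunit of its ring, read 4531 ± 527 in the group labelled Trib1 hi and 1922 ± 95.1 in the group labelled Trib1 null, 2.35-fold higher (adjusted p = 6.22e-10). The catalytic subunit Dis3 rose 2.20-fold, the cap subunits Exosc1 and Exosc2 2.04-fold and 1.80-fold. Exosc8 and Exosc9, picked out after their values were seen, rose by 0.58 and 0.40 on the log2 scale, and their calls ended in at least 1 alternative (adjusted p up to 0.0548 and 0.124). The remaining exosome subunits Exosc10 and Exosc3, and the nuclease Xrn2, did not pass (adjusted p = 0.0525, 0.214 and 0.102). They were also picked out after their values were seen, and a dimmer probe set of Xrn2 was past the threshold and higher. Dbr1, which opens the lariat of the excised intron, read 1603 ± 111 in the group labelled Trib1 hi and 1608 ± 16.4 in the group labelled Trib1 null (adjusted p = 0.980), and Aqr, a splicing factor that links intron position to snoRNP assembly, 1840 ± 210.1 against 1879 ± 72.4 (adjusted p = 0.911); both were named after their values were seen.

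Nonsense-mediated decay removes the spliced RNA of hosts such as Gas5. Of 14 tested factors, 3 rose and 1 fell, a share near the 29.2% of all genes that changed in either direction. Among probe sets at 500 or more on every array, 46.1% changed. The helicase Eif4a3 of the exon junction complex rose 1.38-fold (adjusted p = 0.00253), and the translation release factors Gspt1 and Etf1 rose 1.36-fold and 1.30-fold (adjusted p = 0.00228 and 0.00896). Those 3 calls ended without a mean-variance trend (adjusted p = 0.120 to 0.193). Smg8, a regulator of the kinase Smg1, read 113 ± 131 in the group labelled Trib1 hi and 299.7 ± 52.8 in the group labelled Trib1 null (adjusted p = 0.0425), in the range where arrays differ, and that call ended in most alternatives (up to 0.699). Upf1, the central helicase, lay below 500 in both groups (71.9 ± 124 against 133 ± 71.4, adjusted p = 0.381), so its level could not be compared; it was picked out after its values were seen. Without Trib1 hi 3, 4 factors were higher and 4 lower.

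Of 11 tested genes that control TOP RNAs, 4 rose and 1 fell, beside 29.2% either way among all genes and 46.1% among probe sets at 500 or more on every array. Larp1, which binds the pyrimidine start of TOP RNAs, read 3062 ± 235 in the group labelled Trib1 hi and 1514 ± 52.4 in the group labelled Trib1 null, 2.02-fold higher (adjusted p = 2.30e-08). Eif4ebp1, the translation repressor that mTORC1 phosphorylates, rose 2.29-fold (8061 ± 1363 against 3480.3 ± 239.9, adjusted p = 3.98e-09), and Cnbp, another protein that binds TOP RNAs, rose 1.47-fold. Rheb, the GTPase that activates mTORC1, was the fourth, at 1.45-fold, and was picked out after its values were seen. The calls of Cnbp and Rheb ended in at least 1 alternative (adjusted p up to 0.0946 and 0.111). The kinase Mtor fell at least 1.39-fold (451 ± 153 against 742 ± 27.7, adjusted p = 0.00919), but not when Trib1 hi 1 was left out (adjusted p = 0.0659); without Trib1 hi 3, 3 genes were lower.

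Of 9 tested genes of the glucocorticoid receptor and its response, 3 rose and 2 fell (limma, 3 and 4 at an unadjusted p under 0.05). The shares beside them are the same 29.2% and 46.1%. The receptor Nr3c1, to which human GAS5 RNA binds, read 998 ± 59.1 in the group labelled Trib1 hi and 678 ± 83.4 in the group labelled Trib1 null, 1.48-fold higher (adjusted p = 0.00776, 0.0526 with no filter on low values). None of its 2 other tested probe sets passed the threshold. Its targets divided: Klf9, a zinc finger factor, rose 2.83-fold (6151 ± 887 against 2153 ± 78.1, adjusted p = 1.68e-11) and Tsc22d3, the leucine zipper GILZ, 1.53-fold. The phosphatase Dusp1 read 45.9, 18.6, 482 and 218 on Trib1 hi 1 to 4, against a mean of 1989 ± 53.2 on those labelled Trib1 null, at least 3.98-fold lower (adjusted p = 3.82e-07). Birc3, an inhibitor of apoptosis, was the second to fall, 1.42-fold (1675 ± 145 against 2380 ± 145, adjusted p = 0.000872, up to 0.0651 in the alternatives). Fkbp5, a chaperone of the receptor complex, read 5030 ± 597 against 5899 ± 526 (adjusted p = 0.131), while a dimmer probe set of it was past the threshold and lower. Birc3 and Fkbp5 were picked out after their values were seen.

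Other noncoding hosts of snoRNAs were mostly too dim to compare. Of 15 other noncoding hosts listed, 8 had a probe set of their own, 6 passed the filter, and 1 rose (limma, 1 and 0 at an unadjusted p under 0.05). Among all genes 10.3% were higher and 18.9% lower. The host that rose, Snhg16, read 622, 528, 916 and 708 on Trib1 hi 1 to 4, against 368, 165, 290.5 and 243 on Trib1 null 1 to 4, at least 1.36-fold higher (adjusted p = 0.000249). The other tested probe set of Snhg16 was not past the threshold. Like Gas5 probe set 1424843_PM_a_at, Snhg16 was highest on Trib1 hi 3. The other 5 lay below 500 on every array.

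Of 30 tested protein-coding hosts, 8 rose and 1 fell, with a median log2 difference of 0.12. That is near the 29.2% of all genes that changed in either direction (10.3% higher and 18.9% lower). Most of these hosts read 500 or more on every array, and among all such probe sets the share was larger, at 46.1% (24.4% higher and 21.6% lower). The highest were Nop56, Nop58 and Dkc1, which also belong to the snoRNP list, and Ppan, a ribosome assembly factor and host of a box C/D snoRNA (at least 2.63-fold, adjusted p = 2.47e-08). The 1 that fell was Ap1g1, a subunit of a vesicle adaptor complex, picked out after its values were seen (848 ± 198 against 1323 ± 123, adjusted p = 0.00254, up to 0.119 in the alternatives). The 13 ribosomal protein genes among them were picked out as a group after its values were seen. Their brightest probe sets had log2 differences of -0.0035 to 0.18, and none (0) of these passed the threshold by limma (0 at an unadjusted p under 0.05). A dimmer probe set of Rpl17 and one of Rpl23 did pass and were higher. Of these 13, 9 were past the threshold and higher without Trib1 hi 3, and 10 after quantile normalization. Over all 30 hosts, 20 were higher without that array.

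Long noncoding RNAs outside the host class were tested beside the hosts. Of 6 tested, 0 rose and 1 fell (limma, 1 higher and 1 lower at an unadjusted p under 0.05). Among all genes 10.3% were higher and 18.9% lower, and 6 genes are too few to tell these shares apart. Neat1, the scaffold of paraspeckles, read 1921, 1796, 1813 and 2012 on Trib1 hi 1 to 4, against 4568 ± 258 in the group labelled Trib1 null, 2.42-fold lower (adjusted p = 9.03e-11). Norad and Tug1, both above 500 on all arrays and named after their values were seen, read 10285 ± 1818 against 8442 ± 488 and 3095 ± 409 against 2788 ± 131 (adjusted p = 0.105 and 0.478). Without Trib1 hi 3, 2 of the 6 were higher. Whether the noncoding hosts differ from these RNAs as a group was not tested.

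**Figure D5:**
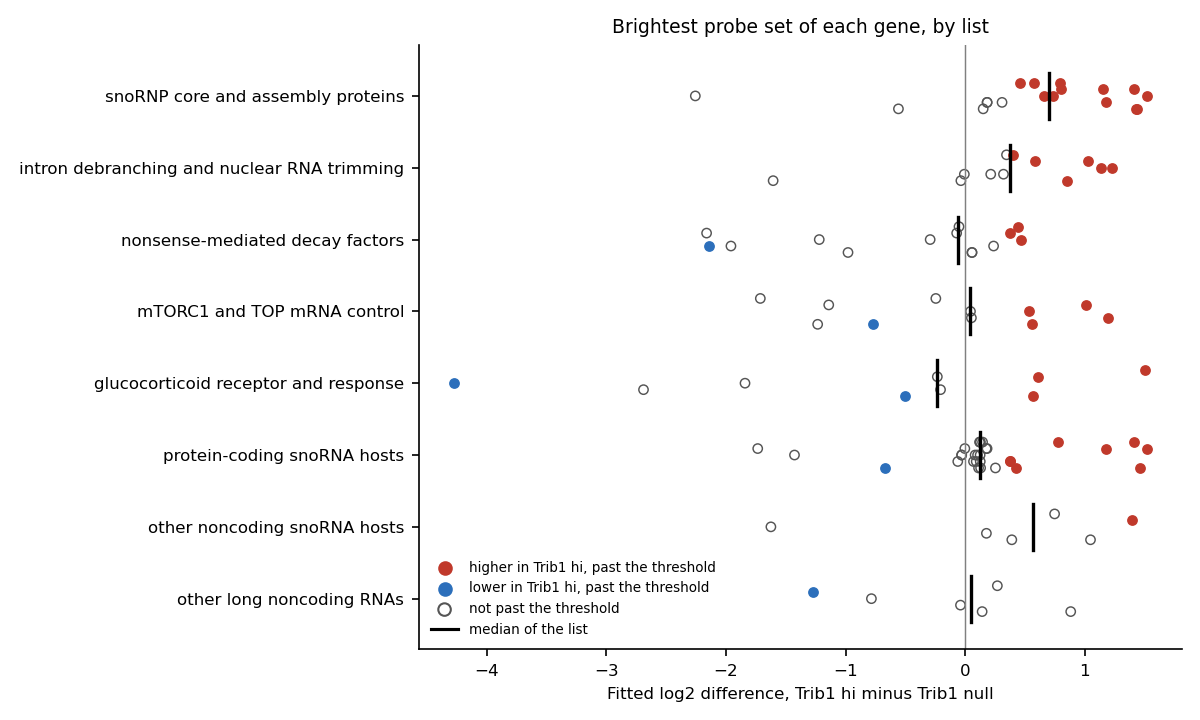
Fitted log2 difference (Trib1 hi minus Trib1 null) of each tested gene by list, 1 point per gene from its brightest probe set, with filled points past the threshold (red higher, blue lower in Trib1 hi) and black bars for list medians. The median of the snoRNP protein genes is 0.70, that of the protein-coding hosts 0.12, where most points sit close to 0.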

How the data were processed

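Total RNA of 8 samples was hybridised to Affymetrix mouse arrays, and sample titles put 4 in each group. The authors deposited 1 linear intensity per probe set and array for 45141 probe sets, and per the submitters' processing notes these come from MAS5. Its version is not given in the sources consulted. No detection calls were used. The number of arrays limits the precision.

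The platform annotation gave 1 symbol for 28898 probe sets, several for 551 and none listed for 15588, with 104 controls set aside. Entrez identifiers of 28689 single-gene probe sets matched the RefSeq gene table of GRCm38.p6, and 0 symbols were updated. That table gave names, chromosomes and neighbours. Promoters were matched by symbol.

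The fit used log2 of the deposited intensity plus 2.71 (25th percentile of all values). Probe sets averaging 3.01 or less on that scale (40th percentile) were dropped, leaving 27022. Adding 2.71 shrinks log2 differences of values close to it. Dim probe sets could still give large ones, with a median of -2.05 at mean log2 values from 5 to 7. In R 4.3.3, limma 3.58.1 (lmFit and trended eBayes) compared the groups, two-sided, with Benjamini-Hochberg adjustment over all probe sets tested and a threshold of 0.05, and every adjusted p comes from it. The fit was tested on simulated data. Tables were made in Python 3.11.15 with pandas 2.3.3 and numpy 2.4.6.

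The hosts and the 8 lists of other genes were chosen with earlier results of these data known. Lists were counted over the brightest probe set of each gene. For Snhg16, Nr3c1, Eif4ebp1, Exosc1, Mtor and Birc3 the call rests on that probe set. No other tested probe set of these genes passed. Named were, per list, up to 4 genes with the largest change past the threshold, with Nr3c1, the neighbours and the 5 closest profiles, 40 genes in all. Genes outside this rule are marked as picked out after their values were seen. Replicate numbers did not pair the arrays: same-numbered arrays deviated together with correlations of -0.48, 0.461, -0.282 and 0.324. The alternatives changed the pseudocount, filter, floor, scaling, probe sets per gene, variance trend, replicate block and single arrays.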

Additional observations from a re-analysis of the deposited data

Results flagged for a closer look

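In groups of 4 arrays, a value was picked out where its gap to the nearest other array, relative to the range of its group, passed Dixon's 95% limit. Of 98 groups checked among the hosts and named genes, 16 were picked out (16.3%), where chance gives about 1 in 20. Trib1 hi 3 held 14 of these and Trib1 null 1 the other 2.

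Trib1 hi 3 read low for bright genes. Snhg5 probe set 1428529_PM_at read 6342 there, against 8468 to 8811 on the other 3 arrays labelled Trib1 hi, and Snhg6 read 10641, against 14172 to 14329. Dkc1 read 6426 (others 8772 to 9073), Eif4a3 6323 (others 8768 to 9080), Exosc5 3743 (others 4731 to 4837), Cnbp 15491 (others 21436 to 22341), Klf9 4834 (others 6414 to 6685) and Zbtb18 3093 (others 3951 to 4063).

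The same array read high for dim probe sets. Snhg5 probe set 1432738_PM_at read 69.3 there, against 4.36 to 5.58 on the other 3, and 1432737_PM_at read 58.5, against 3.42 to 4.55. Znfx1 read 111 (others 5.62 to 6.56), Zfp949 297 (others 8.46 to 10.7), Prss12 48.0 (others 3.44 to 4.53) and Ndst3 13.8 (others 2.54 to 3.10).

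Trib1 null 1 read low for Cnbp, at 12256 against 13935 to 14220 on the other 3 arrays labelled Trib1 null, and high for Ndst3, at 7.72 against 2.72 to 3.39.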

How the results depend on the processing

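None (0) of the 8 host probe sets tested, and of the 40 list genes and 4 neighbours past limma's threshold, changed sign under any alternative run. Of those not past it, 30 list genes and 2 neighbours did, 9 of the list genes past the threshold with the other sign, all after quantile normalization. Over single probe sets and genes, 766 values kept their direction and side of the threshold or moved by less than the spread, 30 lost the call, 3 gained one and 3 moved: Gas5 1424843_PM_a_at to 1.10 with signals below 500 set to 500 and 2.45 after quantile normalization, and Gas5 1436222_PM_at to 1.49 with that floor. The median host difference (1.67) was 1.10 with the floor, 2.15 after quantile normalization and 1.95 with 1 probe set per gene. Quantile normalization gave 6548 probe sets higher and 6195 lower, and counts higher of 3 for other noncoding hosts, 22 for protein-coding hosts, 8 for decay factors and 3 for other long noncoding RNAs, and lower of 6 for the glucocorticoid list and 1 for neighbours. Without a mean-variance trend, 1014 probe sets were higher and 1285 lower, with higher counts of 5 for protein-coding hosts, 0 for decay factors, 2 for TOP control and 2 for neighbours, and lower counts of 0 for protein-coding hosts, decay factors and TOP control and 1 for the glucocorticoid list. With 1 probe set per gene, 1362 were higher and 2405 lower. With no filter, 2439 were lower, and protein-coding hosts, decay factors and TOP control each had 0 lower. The floor gave 0 lower decay factors, a pseudocount of 16 gave 1 lower snoRNP gene, equal medians gave 4 lower in the glucocorticoid list and 1 higher other long noncoding RNA, and equal 90th percentiles gave 1 higher. With the replicate number as a block, 2 protein-coding hosts and 1 trimming gene were lower; no other list count moved by over 1.5 times. Leaving out 1 array at a time gave 1794 to 3570 probe sets higher and 3116 to 6986 lower, and host medians of 1.45 to 2.03. Higher counts ranged over 6 to 20 for protein-coding hosts, 11 to 15 for snoRNP genes, 2 to 4 for decay factors, 6 to 8 for trimming, 3 to 4 for neighbours and 0 to 2 for other long noncoding RNAs. Lower counts ranged over 0 to 1 for other noncoding hosts, 1 to 2 for protein-coding hosts, 0 to 2 for snoRNP genes, 0 to 4 for decay factors, 0 to 1 for trimming, 0 to 3 for TOP control, 2 to 3 for the glucocorticoid list and 0 to 2 for neighbours. Without Trib1 hi 3, 3570 were higher and 6986 lower, and the median of all probe sets moved to -0.38, against 0.11 with it. The causes were not tested. Signals below 500 limit Gas5, Snhg16 and the dim neighbours.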
